A study of Mus musculus with 48 samples.

Results

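The livers described here were collected at ZT22, late in the dark phase of the daily cycle, where zeitgeber time (ZT) counts hours from lights-on. They are the 8 ZT22 libraries of the 48 in the series: 4 from germ-free (GF) mice, raised without any microbes, and 4 from conventionally raised (convR) mice, which carry a gut microbiota. Each status has 2 libraries from females and 2 from males. All mice were C57BL/6j, 15 to 16 weeks old and fed ad libitum, and the other 40 libraries are livers of the same 4 kinds of mice at ZT2, ZT6, ZT10, ZT14 and ZT18, 8 libraries each. Total RNA was depleted of ribosomal RNA, sequenced as paired reads and counted over exons. Females and males were deposited in separate count tables, so sex and table cannot be told apart. The labels do not say whether a library is 1 animal or a pool, and the p-values below measure the spread between these samples, which may be in part technical. The comparison asks what the absence of microbes did to liver transcripts at this time of day, and which of those differences were particular to it.

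The liver meets microbial products first, through portal blood. Gut bacteria deconjugate and modify bile acids, remove taurine from them and supply ligands for hepatic receptors that control cytochrome P450 genes. The circadian clock of the liver is a loop in which CLOCK and BMAL1 drive their own repressors, among them Per, Cry and Rev-erb, and it times lipid, sterol and amino acid metabolism to feeding in the dark. Acute-phase genes encode plasma proteins such as the serum amyloids, fibrinogen and haptoglobin that hepatocytes secrete when interleukin 6 and related cytokines activate STAT3 and NF-kB.

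The convR libraries held 34335183 to 41300622 counts and the GF libraries 38826426 to 40973154. The 10 most abundant genes took 17.1% to 19.6% of counts in convR and 19.4% to 22.6% in GF livers. All 13 hepatocyte markers were detected, and their summed level was 105400 to 145000 counts scaled to 1e6 per library (CPM) in convR and 144000 to 167400 CPM in GF livers. In the test described below, 4 of the 13 were called higher in GF livers (against 3.38% of all genes) and 0 lower. The median log2 fold change of the 13 was 0.36. The 21 markers of pancreatic acinar cells summed to 592 CPM in GF female replicate 1 and to between 6.00 and 19.9 CPM in the other 7 libraries. In bulk tissue, fewer cells of a type and less RNA per cell cannot be told apart.

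With both sexes averaged, GF livers at ZT22 had much lower transcript levels of Csad, an enzyme of taurine synthesis, and of the drug-metabolising P450 Cyp3a11. Many genes of amino acid breakdown, the urea cycle, fatty acid synthesis and cholesterol synthesis were higher, and cell-cycle genes were lower. Of 16607 genes tested, 1002 were called at an adjusted p under 0.05 (6.03%; edgeR's quasi-likelihood test with Benjamini-Hochberg adjustment, sex as a term): 561 higher in GF (3.38%) and 441 lower (2.66%). For 996 of the 1002 the estimates in females and males had the same sign. Selection on the effect averaged over both sexes favours such genes, so the count does not measure agreement between the sexes. The count moved with single libraries: it was 350 without convR male replicate 1, 403 without convR male replicate 2, 509 without convR female replicate 2 and 634 without GF female replicate 1. Scaled by library size alone, the GF effect at ZT22 was called for 1929 genes, of which 15.8% were higher, against 56% here, and the median of all genes was -0.15 on the log2 scale.

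**Figure D1:**
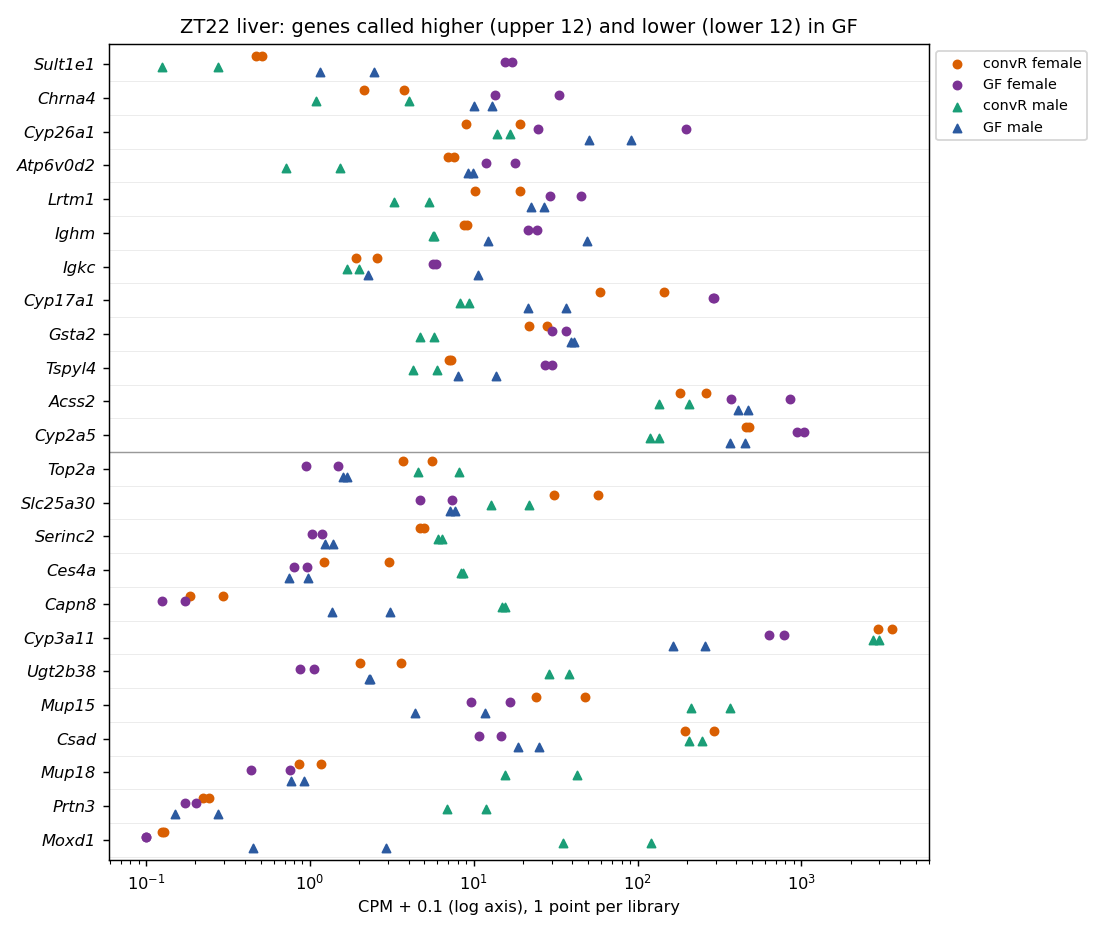
CPM (plus 0.1, log axis) of the 12 genes called higher and the 12 called lower in GF livers at ZT22 with the largest fold changes among those that kept their direction in every library of each sex, 1 point per library, coloured by status and sex. Separation by status within each sex was required of all genes shown. Every GF point of Csad and Cyp3a11 also lies below every convR point of either sex. Moxd1, Prtn3 and Mup18 are highest in the convR male libraries and low in all 4 female libraries.

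Csad encodes the decarboxylase that makes hypotaurine, the precursor of taurine, from cysteine sulfinate (ENSMUSG00000023044, chr15:102176999-102204724, GRCm38). Its level was 295 and 194 CPM in convR females, 205 and 246 CPM in convR males, 10.7 and 14.6 CPM in GF females and 24.8 and 18.4 CPM in GF males. Every GF library lay below every convR library. The log2 fold change was -3.67 ± 0.22 (SE, n = 4 per status; adjusted p = 0.000196, edgeR), with -4.09 in females and -3.27 in males. In the fit over all 48 libraries the Csad effect was also called at the 5 other times, from -2.52 at ZT10 to -3.64 at ZT14, and its ZT22 value did not differ from their mean (log2 difference -0.46 ± 0.42, adjusted p = 0.767).

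Among the 16 genes of the taurine and sulfur amino acid list, 8 rose (against 3.38% of all genes) and 1, Csad, fell (against 2.66%). The list median was 0.43, against 0.00 for all genes tested. Those that rose carry methionine and homocysteine metabolism: Ahcy, which hydrolyses S-adenosylhomocysteine, by 1.05 ± 0.10, Cth, the cystathionine gamma-lyase, by 1.09 ± 0.17, Bhmt, which remethylates homocysteine, by 1.09 ± 0.24, and Gnmt, the glycine methyltransferase, by 0.93 ± 0.11 (log2, SE). The taurine transporter Slc6a6 rose by 0.42 ± 0.11. The cysteine dioxygenase Cdo1, the step before Csad, had a value of 0.37 ± 0.12 and did not pass (adjusted p = 0.108). The 9 calls became 4 without convR male replicate 1 and 5 without convR male replicate 2, and 3 in the female table alone.

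Cyp3a11 encodes the main Cyp3a enzyme of mouse liver, a target of the xenobiotic receptor PXR (ENSMUSG00000056035, chr5:145854426-145879964). It stood at 3568 and 2931 CPM in convR females, 2996 and 2739 CPM in convR males, 634 and 786 CPM in GF females and 165 and 259 CPM in GF males. The groups did not overlap, and GF males were below GF females. The log2 fold change was -2.83 ± 0.32 (adjusted p = 0.0024), -2.01 in females and -3.64 in males, and the female effect minus the male effect was 1.63 ± 0.29 (adjusted p = 0.0376). Cyp3a11 was called lower in GF at all 6 times in the 48-library fit.

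Sult1e1, the oestrogen sulfotransferase, had the largest rise of the genes named (ENSMUSG00000029272, chr5:87575969-87591594). It was at 0.365 and 0.413 CPM in convR females and at 17.0 and 15.5 CPM in GF females. In males it was at 0.0242 and 0.175 CPM in convR and at 1.05 and 2.36 CPM in GF livers. The convR male values rest on few reads, and the fitted size of the rise depends on them. Status separated the libraries within each sex, which the choice of named genes required. Levels were higher in females, and the log2 fold change was 5.29 ± 0.38 (adjusted p = 0.000276). Serinc2, a membrane protein of the serine incorporator family, was low but steady within groups: 4.58 and 4.86 CPM in convR females, 6.32 and 5.97 CPM in convR males, 1.08 and 0.927 CPM in GF females, and 1.27 and 1.14 CPM in GF males. Its fold change was -2.14 ± 0.14 (adjusted p = 0.000196).

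Other genes with large rises were Chrna4, a nicotinic receptor subunit, at 2.78 ± 0.44, Cyp26a1, which degrades retinoic acid, at 2.74 ± 0.54, the V-ATPase subunit Atp6v0d2 at 2.09 ± 0.38, Lrtm1 at 2.06 ± 0.28, the steroid 17-hydroxylase Cyp17a1 at 1.79 ± 0.25, Tspyl4 at 1.72 ± 0.24 and the cytosolic acetyl-CoA synthetase Acss2 at 1.59 ± 0.26 (log2, SE). Cyp26a1 varied within groups, with 24.7 and 198 CPM in the GF females. Chrna4 was at 33.2 CPM in GF female replicate 1, the library with pancreatic transcripts, and at 9.97 to 13.3 CPM in the other 3 GF libraries, against 0.990 to 3.95 CPM in convR.

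Among the genes that fell furthest, Moxd1, a copper monooxygenase, Prtn3, the neutrophil granule protease proteinase 3, Capn8, a calpain, and Mup18, a major urinary protein, were at or below 1.07 CPM in all 4 female libraries, so their fold changes rest on the males. Moxd1 was at 35.1 and 121 CPM in convR males and at 2.83 and 0.348 CPM in GF males. Prtn3 was at 11.8 and 6.73 CPM in convR males and at 0.175 and 0.0497 CPM in GF males. The 13 neutrophil and monocyte markers summed to 80.0 to 98.2 CPM in convR and to 47.3 to 157 CPM in GF livers. Of the 9 that were tested, 2 were called lower (against 2.66% of all genes) and 0 higher, with a median of -0.49. The part of such cells in the Prtn3 value was not tested. The other genes named as lower were Mup15 at -3.16 ± 0.80, the glucuronosyltransferase Ugt2b38 at -2.90 ± 0.43, the carboxylesterase Ces4a at -2.36 ± 0.44, the mitochondrial carrier Slc25a30 at -1.90 ± 0.35 and Top2a at -1.88 ± 0.23. Mup, Ugt2b, Ces, Cyp2a, Cyp2b and Gsta genes have near-identical copies, and how reads shared between copies were counted is not given in the sources used here, so values of single members are uncertain.

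Genes of amino acid breakdown and the urea cycle were higher in GF livers. Of 22 listed, 14 passed the test and all 14 were higher (against 3.38% of all genes; list median 0.61). Cps1, the carbamoyl-phosphate synthetase that starts the urea cycle, was at 6112 and 6264 CPM in convR females, 5188 and 4789 CPM in convR males, 10880 and 9534 CPM in GF females and 9168 and 9332 CPM in GF males. Ass1, argininosuccinate synthetase, was at 2353, 2439, 1577 and 1429 CPM in the convR libraries in the same order and at 5240, 4336, 3270 and 3771 CPM in the GF libraries. Neither gene overlapped between statuses, and the log2 fold changes were 0.96 ± 0.10 (adjusted p = 0.00199) for Cps1 and 1.27 ± 0.11 (adjusted p = 0.00084) for Ass1. The aspartate aminotransferase Got1 rose by 1.16 ± 0.20, the tyrosine catabolic enzyme Hpd by 0.81 ± 0.09, the tyrosine aminotransferase Tat by 0.70 ± 0.12 and the alanine aminotransferase Gpt by 0.75 ± 0.11. The arginase Arg1 (0.29 ± 0.11, adjusted p = 0.154) and the ornithine transcarbamylase Otc (0.18 ± 0.08, adjusted p = 0.231) did not pass. The number called was 11 to 14 with any 1 library left out. In the 48-library fit the list's median effect was 0.60 at ZT22 and 0.70 at ZT14. At ZT2, ZT6, ZT10 and ZT18 it was 0.44, 0.23, 0.28 and 0.29. For 0 of the 22 did the ZT22 effect differ from the mean of the other times (against 0.257% of all genes).

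Genes of lipid synthesis were also higher. In lipogenesis, 11 of 19 genes passed, all higher (against 3.38% of all genes), with a list median of 0.65. They included Acly, which makes cytosolic acetyl-CoA, at 1.02 ± 0.15, Fasn, the fatty acid synthase, at 0.72 ± 0.17, Elovl6, the elongase of saturated fatty acids, at 0.74 ± 0.11, and the regulator Srebf1 at 0.67 ± 0.11 (log2, SE). Srebf1 was at 434, 407, 213 and 227 CPM in convR (females, then males) and at 508, 533, 317 and 408 CPM in GF livers, separated within each sex but overlapping across sexes. In cholesterol synthesis, 14 of 24 genes passed, all higher (against the same 3.38%), with a list median of 0.69. Mvd, the mevalonate diphosphate decarboxylase, was at 17.2, 23.1, 20.6 and 19.6 CPM in convR and at 30.2, 32.0, 34.1 and 41.4 CPM in GF livers in the same order, with no overlap, and its fold change was 0.92 ± 0.11 (adjusted p = 0.0024). Lss, the lanosterol synthase, rose by 1.06 ± 0.19. Hmgcs1 had a value of 0.59 ± 0.25 and did not pass (adjusted p = 0.203). Without convR male replicate 1 or convR male replicate 2, 7 lipogenic genes were called, and cholesterol genes fell to 9 without GF male replicate 1 and 8 without convR male replicate 2. With the spread estimated from all 48 libraries, 4 lipogenic and 5 cholesterol genes were called at ZT22. In that fit the lipogenic list's median effect was -0.10 at ZT2, -0.94 at ZT6, -0.63 at ZT10, 0.17 at ZT14, 0.51 at ZT18 and 0.65 at ZT22. The cholesterol list's median was 0.22, -0.61, 0.14, 0.78, 1.02 and 0.68 at the same times, so it was larger at ZT14 (8 genes called higher) and ZT18 (13) than at ZT22 (5).

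Cell-cycle genes were lower in GF livers. Of 22 proliferation genes, 10 passed and all 10 had fallen (against 2.66% of all genes; median -1.06). Top2a, the topoisomerase of dividing cells, was at 3.63 and 5.47 CPM in convR females, 8.09 and 4.49 CPM in convR males, 0.85 and 1.39 CPM in GF females and 1.57 and 1.49 CPM in GF males. Mki67, the Ki-67 antigen, fell by 1.47 ± 0.22 on the log2 scale (adjusted p = 0.00704), and the replication licensing genes Mcm2 and Mcm6 fell by 0.90 ± 0.17 and 0.88 ± 0.18. The levels were low, and Pcna (0.09 ± 0.07, adjusted p = 0.516) did not pass. The count was 3 without convR male replicate 1, 4 without convR female replicate 2, and 6 without GF male replicate 1 or GF male replicate 2. In the 48-library fit the list's median effect was -1.04 at ZT22 and -1.03 at ZT14. At ZT2, ZT6, ZT10 and ZT18 it was -0.65, -0.82, -0.70 and -0.94. For 0 of the 22 did the ZT22 effect differ from the mean of the other times (against 0.257% of all genes). Kupffer cell markers, which mark the resident macrophages, summed to 783 to 920 CPM in convR and to 578 to 854 CPM in GF livers. Of these 14 markers, 2 were called lower (against 2.66% of all genes). The part of such cells in the cell-cycle values was not tested.

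Immunoglobulin transcripts were higher in GF livers. Ighm, the IgM heavy chain, was at 8.63 and 8.96 CPM in convR females and 5.54 and 5.62 CPM in convR males. In GF livers it was at 21.3 and 24.2 CPM in females and at 49.2 and 12.2 CPM in males. All 4 GF libraries lay above all 4 convR libraries (2.06 ± 0.38, adjusted p = 0.0139), as they did for the pooled level of the 9 B and plasma cell markers, 20.8 to 73.5 CPM against 12.1 to 17.3 CPM. Of those 9 markers, 5 were called higher (against 3.38% of all genes), among them the kappa light chain Igkc (1.79 ± 0.39), the joining chain listed as Igj (1.78 ± 0.44) and Cd79b (0.84 ± 0.21). GF male replicate 1 stood highest for Ighm and for the pooled level, and without it the log2 fold change of Ighm was 1.44, still called by edgeR. Ighm lost its call with robust dispersions, and without convR male replicate 1 (1.93, adjusted p = 0.0656) or convR male replicate 2 (1.93). Igkc kept its call only without GF male replicate 1 (1.17, adjusted p = 0.041) or GF male replicate 2 (2.07, adjusted p = 0.00413), and lost it with robust dispersions and without any 1 of the other 6 libraries (adjusted p 0.0523 to 0.103).

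Other xenobiotic and bile acid genes moved in both directions. Of 30 listed targets of CAR and PXR, 8 were called higher (against 3.38% of all genes) and 2 lower (against 2.66%), the latter Cyp3a11 and the carboxylesterase Ces2a (-0.67 ± 0.09). The higher ones included Cyp2c54 (1.27 ± 0.18), Cyp2c50 (0.83 ± 0.15) and the glutathione S-transferase Gstm3 (0.89 ± 0.12). Of 14 bile acid synthesis genes, 3 were called higher and 2 lower, against the same shares. Cyp39a1, an oxysterol hydroxylase, rose by 1.17 ± 0.15 (adjusted p = 0.00348), and Cyp8b1, which directs synthesis to cholic acid, fell by 0.81 ± 0.19 (adjusted p = 0.0343). Cyp7a1, the rate-limiting enzyme, had a value of -0.69 ± 0.28 and did not pass (adjusted p = 0.185).

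Among 40 interferon and antigen presentation genes, 5 were called and all were lower (against 2.66% of all genes; median -0.26). The count was 3 without convR male replicate 1, convR male replicate 2, convR female replicate 2 or GF female replicate 1, and 7 at most, without convR female replicate 1. Zbp1, a nucleic acid sensor induced by interferon, was at 10.2, 12.5, 9.73 and 10.9 CPM in convR livers (females, then males) and at 4.07, 4.22, 3.23 and 3.80 CPM in GF livers, with no overlap. Its fold change was -1.35 ± 0.11 (adjusted p = 0.000619). The others were the transcription factor Irf7 (-0.69 ± 0.12), the oligoadenylate synthetases Oas1a (-0.76 ± 0.20) and Oas2 (-1.19 ± 0.21), and Ifi44 (-0.66 ± 0.15).

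A gene can differ at ZT22 and at every other time alike. The fit over all 48 libraries, with 2 libraries per combination of sex, status and time, called 1172 of 17867 genes at ZT22 (6.56%), of which 512 were called at no other time. At the other times it called 493 (2.76%) at ZT2, 1142 (6.39%) at ZT6, 445 (2.49%) at ZT10, 1025 (5.74%) at ZT14 and 1356 (7.59%) at ZT18. The difference itself, the GF effect at ZT22 minus the mean of the effects at the other 5 times, passed for 46 genes (0.257%), 21 of them higher (0.118%) and 25 lower (0.14%). For comparison, the same test passed for 630 genes at ZT6, 187 at ZT18, 34 at ZT14, 9 at ZT10 and 4 at ZT2. For 36 of the 46 genes the absolute effect was also the largest of the 6 times at ZT22, which held for 17.2% of all genes tested. The 46 were selected on the ZT22 effect in the same fit, so this count follows largely from the selection.

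Genes with a higher ZT22 effect than at the other times included 3 of the 15 core clock genes (against 0.118% of all genes). Cry1 and Cry2 were among the 3, and single genes such as Cyp2a5, Gsta2, Afmid and Sord also passed. Those that were lower were led by acute-phase genes, 11 of the 32 listed (against 0.14% of all genes). Among the 11 were Lcn2, Saa3, Lbp and the 3 fibrinogen chains. The 46 calls depended on single libraries, with 0 without GF female replicate 2, 4 without convR male replicate 2, 11 without convR female replicate 2, 15 without GF female replicate 1, 17 without GF male replicate 1, 20 without convR male replicate 1, 26 without GF male replicate 2 and 30 without convR female replicate 1 (edgeR). For the ZT22 GF effect against the other 5 times without that first library, 1811 genes had an unadjusted p under 0.05, against 1959 in the full set, where DESeq2 called 260. Against ZT18 and ZT2 alone, the neighbouring times, edgeR also called 0, with 1210 genes at an unadjusted p under 0.05. The male table alone called 130 genes, 31 of them among the 46, and the female table alone called 3, 0 of them among the 46.

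**Figure D2:**
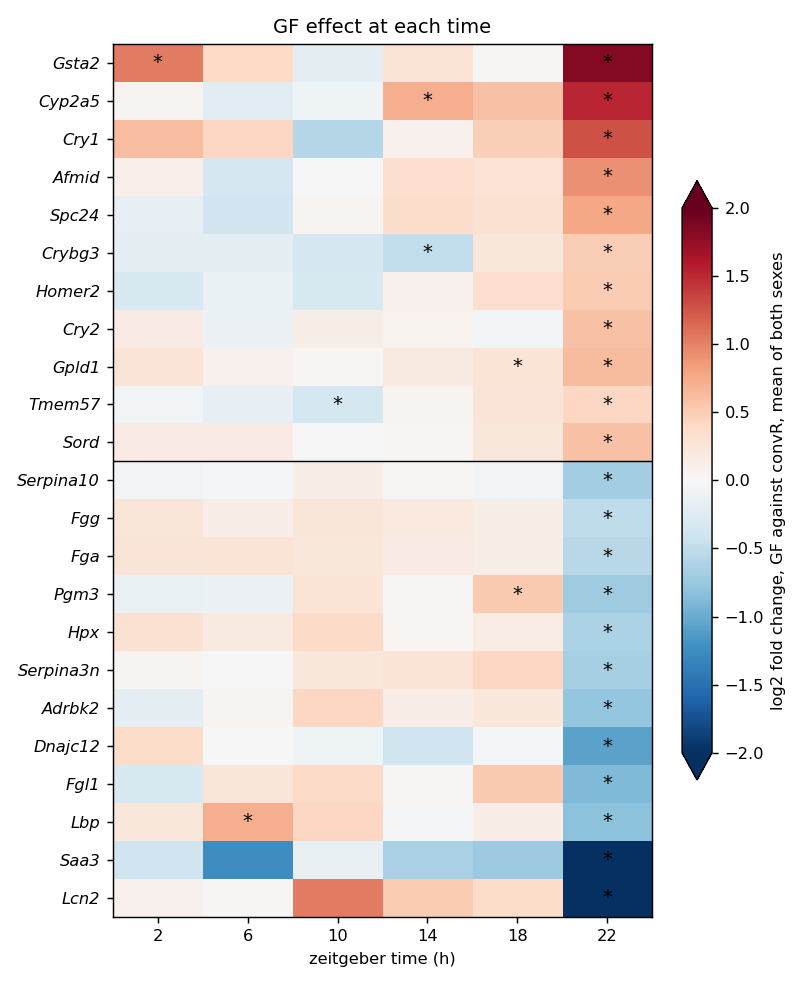
Heat map of the log2 fold change of GF against convR livers (colour, cut at 2 in each direction) at each of the 6 zeitgeber times (columns, hours) in the 48-library fit, for 23 genes called in the comparison of ZT22 with the other times (rows); an asterisk marks an adjusted p under 0.05. All 23 are called at ZT22, where the upper 11 are red and the lower 12 blue, and 7 of them carry 1 asterisk at another time.

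Cyp2a5 encodes the P450 that hydroxylates coumarin and nicotine (ENSMUSG00000005547, chr7:26835305-26843548). At ZT22 it was at 459 and 480 CPM in convR females, 135 and 120 CPM in convR males, 946 and 1031 CPM in GF females and 451 and 366 CPM in GF males. Status separated the libraries within each sex, as the choice of named genes at ZT22 required, and both GF males lay below both convR females. The fold change was 1.53 ± 0.13 (adjusted p = 0.000619), 1.26 in females and 1.80 in males. In the 48-library fit the effects were 0.06 at ZT2, -0.22 at ZT6, -0.08 at ZT10, 0.73 at ZT14, 0.59 at ZT18 and 1.52 at ZT22, and the ZT22 effect exceeded the mean of the others by 1.31 ± 0.24 (adjusted p = 0.0129). Within the sexes that excess was 1.42 in females and 1.19 in males. In convR males Cyp2a5 had stood at 484 and 587 CPM at ZT18, while GF males had 746 and 871 CPM at ZT18.

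Gsta2, a glutathione S-transferase of the alpha class, was at 27.9 and 21.8 CPM in convR females, 30.1 and 36.4 CPM in GF females, 5.64 and 4.60 CPM in convR males and 39.0 and 41.1 CPM in GF males. The convR males stood apart from the other 6 libraries. The ZT22 excess was 1.52 ± 0.31 (adjusted p = 0.0195), with 3.25 in males and -0.20 in females. Afmid, the kynurenine formamidase of tryptophan breakdown, had an excess of 0.84 ± 0.16 (adjusted p = 0.0156), 0.68 in females and 0.99 in males. Smaller excesses were measured for Spc24, a kinetochore subunit (0.75), Crybg3 (0.68), Homer2 (0.56), Gpld1, the phospholipase that cleaves GPI anchors (0.47), Tmem57 (0.47) and Sord, sorbitol dehydrogenase (0.46). The NADP-dependent malic enzyme Me1 also passed (1.29 ± 0.29, adjusted p = 0.0488).

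Cry1 encodes a repressor of CLOCK and BMAL1 that peaks late in the night (ENSMUSG00000020038, chr10:85131700-85185064). At ZT22 it was at 63.2 and 45.6 CPM in convR females, 71.1 and 93.5 CPM in GF females, 18.7 and 13.4 CPM in convR males and 57.9 and 44.0 CPM in GF males. The convR males were lowest, and status separated the libraries within each sex. The ZT22 effect was 1.27 ± 0.22 (adjusted p = 0.012), and its excess over the other times 1.07 ± 0.20 (adjusted p = 0.0129), 1.67 in males and 0.46 in females. At ZT18 Cry1 stood at 51.3 and 42.8 CPM in convR males and 50.5 and 50.1 CPM in GF males. The convR male libraries at ZT22 thus lay below those at ZT18, while the GF males at ZT22 lay on either side of theirs.

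Cry2, the other cryptochrome repressor, was at 30.1 and 25.5 against 42.6 and 43.0 CPM in females and at 24.8 and 26.2 against 33.6 and 27.0 CPM in males (convR, then GF). Status separated the libraries within each sex, narrowly in males. Cry2 had an excess of 0.54 ± 0.12 (adjusted p = 0.0342), 0.93 in females and 0.15 in males.

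Of the 15 core clock genes, 4 were called in the comparison of GF with convR at ZT22, all higher (against 3.38% of all genes), among them Cry1, Cry2 and Arntl, which encodes BMAL1 (0.59 ± 0.11, adjusted p = 0.0122). The list median was 0.59. Without convR male replicate 1, edgeR called 0 of the 15, with 4 at an unadjusted p under 0.05. DESeq2 called 4 with all 8 libraries. The 3 calls against the other times (against 0.118% of all genes; list median 0.44) became 1 without GF female replicate 1, and 0 without convR female replicate 2, convR male replicate 2, GF female replicate 2 or GF male replicate 1, with 4 to 6 of the 15 at an unadjusted p under 0.05. DESeq2 called 3. Nr1d1, encoding Rev-erb alpha, was at 7.75 and 11.1 CPM in convR males against 1.93 and 1.14 CPM in GF males, and at 1.52 and 0.291 against 1.93 and 1.85 CPM in females. Its female-minus-male difference was 3.78 ± 0.72 (adjusted p = 0.0533) and did not pass. The statuses were far apart in males and close in females for Npas2, a CLOCK paralogue, at 1.77 and 0.845 CPM in convR males, 6.50 and 6.26 CPM in GF males, 9.59 and 10.3 CPM in convR females and 8.24 and 9.32 CPM in GF females. For Npas2 the difference passed (-2.37 ± 0.34, adjusted p = 0.0159). Per2 (0.08 ± 0.26, adjusted p = 0.893) and Clock (-0.01 ± 0.10, adjusted p = 0.963) did not pass.

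**Figure D3:**
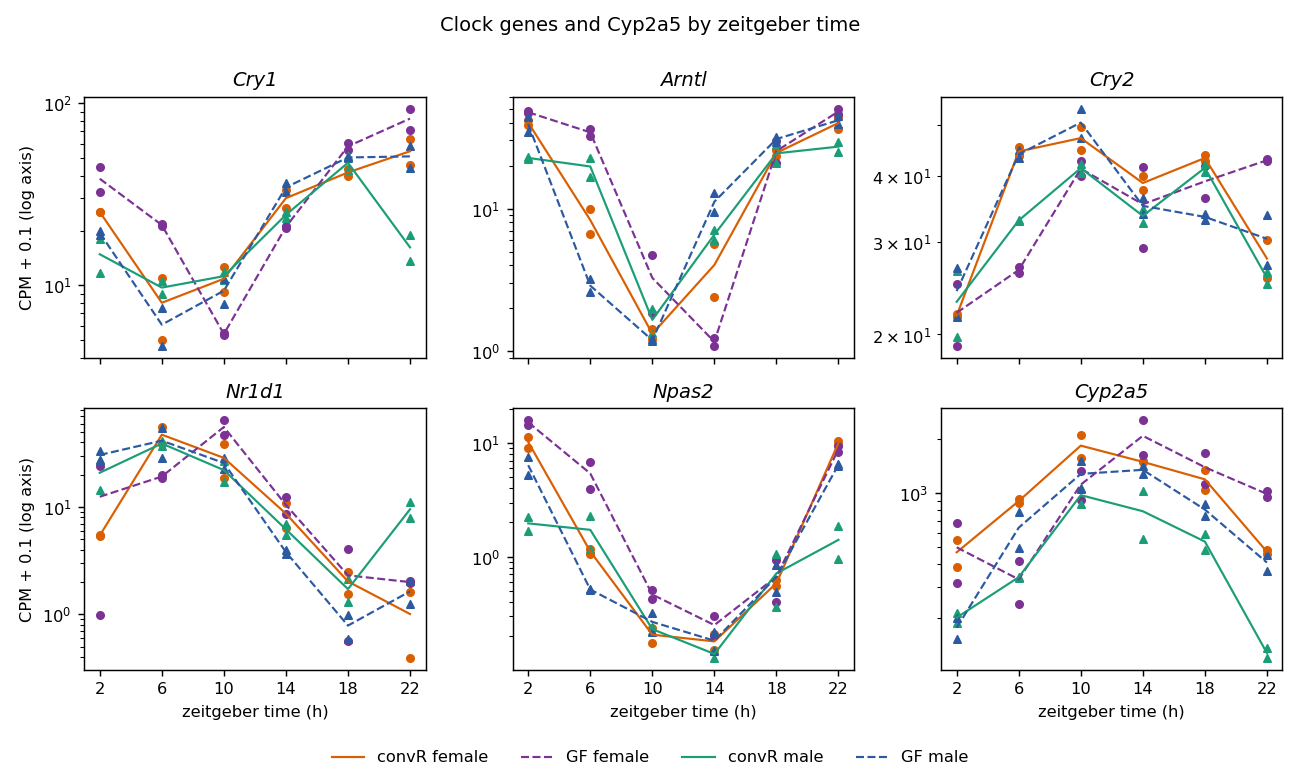
CPM (plus 0.1, log axis) of 5 clock genes and Cyp2a5 over the 6 zeitgeber times, with 1 point per library and lines through the means of the 2 libraries of each sex and status. At ZT22 the convR male points of Cry1 lie below the other 3 groups, after levels near those of GF males at ZT18.

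The Cry1 promoter is printed because Cry1 led the clock genes and an E-box is the element that CLOCK and BMAL1 bind. It is the part upstream of the transcribed gene, chr10:85185065-85185304 on the minus strand of GRCm38.p6 (RefSeq), 5' to 3', with the E-box (CACGTG, 60 to 55 bases before the RefSeq start) in capitals:

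Cry1: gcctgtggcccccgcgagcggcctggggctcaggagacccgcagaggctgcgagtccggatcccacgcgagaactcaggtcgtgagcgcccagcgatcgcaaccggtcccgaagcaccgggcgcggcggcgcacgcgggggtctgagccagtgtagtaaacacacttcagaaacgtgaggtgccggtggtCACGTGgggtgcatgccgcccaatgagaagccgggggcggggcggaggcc

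An E-box lay in the promoter window of 4 of the 12 core clock genes with a window (33.3%: Per1, Cry1, Ciart and Bhlhe41), against 6.02% of all 32851 windows of 250 bases. Cry2 had no match, which says only that these letters are not in the window.

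The summed level of the acute-phase genes was high in 1 group only at this time, the convR males. Not every member followed the sum, and Mt1 and Mt2 were highest in GF females. The summed level of the 32 listed genes was 67780 and 69120 CPM in the convR male libraries at ZT22. In the other 6 ZT22 libraries it was 22620 to 26350 CPM, and in the 40 libraries of other times 19140 to 36100 CPM. The GF males lay with the females of both statuses, far below the convR males. With both sexes averaged over the 8 libraries, 2 of the 32 genes were called, both lower (Fga and Cebpb, against 2.66% of all genes). The 48-library fit called 16 of the 32 lower at ZT22, against 556 of all 17867 genes. The count of 2 was 6 without GF female replicate 1, 1 without convR male replicate 1, GF male replicate 1 or GF male replicate 2, and 0 without convR male replicate 2, where edgeR left 10 genes at an unadjusted p under 0.05. DESeq2 on the 8 libraries called 8 lower and 2 higher. Hepatocyte markers summed to 112200 and 105400 CPM in those convR males, and to 138900 to 167400 CPM elsewhere at ZT22. The part of this in the result was not tested.

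Lcn2 encodes lipocalin 2, which binds bacterial siderophores (ENSMUSG00000026822, chr2:32384633-32388252). It was at 394 and 332 CPM in convR males and at 13.0 and 2.41 CPM in GF males. In females it was at 3.20 and 7.09 CPM in convR and at 5.05 and 7.66 CPM in GF livers. At ZT6 convR males had 19.1 and 50.1 CPM. The ZT22 effect minus the mean of the other times was -2.89 ± 0.61 (adjusted p = 0.0275), -5.18 in males and -0.60 in females.

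Saa3, a serum amyloid A, was at 83.2 and 87.5 CPM in convR males and 1.43 and 1.64 CPM in GF males, against 3.37 and 1.94 CPM in convR females and 2.16 and 1.12 CPM in GF females (ENSMUSG00000040026, chr7:46711998-46715700). At ZT6 the convR males had 8.93 and 53.4 CPM. The Saa3 difference was -2.46 ± 0.47 (adjusted p = 0.0129), -3.77 in males and -1.15 in females. Saa1 was at 3821 and 4118 CPM in convR males and at 109 and 22.2 CPM in GF males, with 9.55 to 13.3 CPM in the 4 female libraries. In Saa1 the convR males were also high at ZT6, at 991 and 1705 CPM, and its difference from the other times did not pass (-2.42 ± 0.66, adjusted p = 0.113).

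Lbp, the protein that presents bacterial lipopolysaccharide to its receptor, had steadier levels (ENSMUSG00000016024, chr2:158306493-158332852). It was at 213 and 208 CPM in convR males at ZT22 and between 54.7 and 68.5 CPM in the 10 convR male libraries of the other times. GF males had 60.2 and 63.1 CPM, convR females 92.3 and 83.1 CPM and GF females 76.4 and 80.2 CPM. The difference was -1.12 ± 0.19 (adjusted p = 0.00662), -1.71 in males and -0.52 in females. At ZT6 the Lbp effect was called in the other direction, with 199.5 and 157 CPM in GF females at that time.

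Among the abundant plasma proteins, Fga, the fibrinogen alpha chain, was at 8380 and 8676 CPM in convR males, 4176 and 4392 CPM in GF males, 5618 and 5446 CPM in convR females and 4307 and 3915 CPM in GF females. Status separated the libraries in both sexes, and the difference from the other times was -0.77 ± 0.12 (adjusted p = 0.00647), -1.08 in males and -0.45 in females. Fgb and Fgg, the other chains, gave -0.66 ± 0.12 and -0.70 ± 0.13. Haptoglobin (Hp) gave -1.29 ± 0.24 (adjusted p = 0.0129) from 9040 and 9941 CPM in convR males and 2735 and 2299 CPM in GF males, and hemopexin (Hpx), which binds haem, gave -0.85 ± 0.16. Serpina3n gave -0.85 ± 0.17, -1.99 in males and 0.28 in females. Itih3 and Itih4, heavy chains of the inter-alpha-trypsin inhibitors, also passed.

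The 11 acute-phase calls fell to 0 without GF female replicate 2, 2 without convR male replicate 2 and 4 without GF male replicate 2, and to 7 when any 1 of the other 5 libraries was left out. At that 0, 24 of the 32 genes had an unadjusted p under 0.05. Without ZT10 among the reference times 3 were called, and the male table alone called 19. With DESeq2, 16 of the 32 were called. Crp, the C-reactive protein (0.11 ± 0.17, adjusted p = 0.895), and Socs3, the feedback inhibitor of STAT3 (0.06 ± 0.36, adjusted p = 0.997), did not pass.

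**Figure D4:**
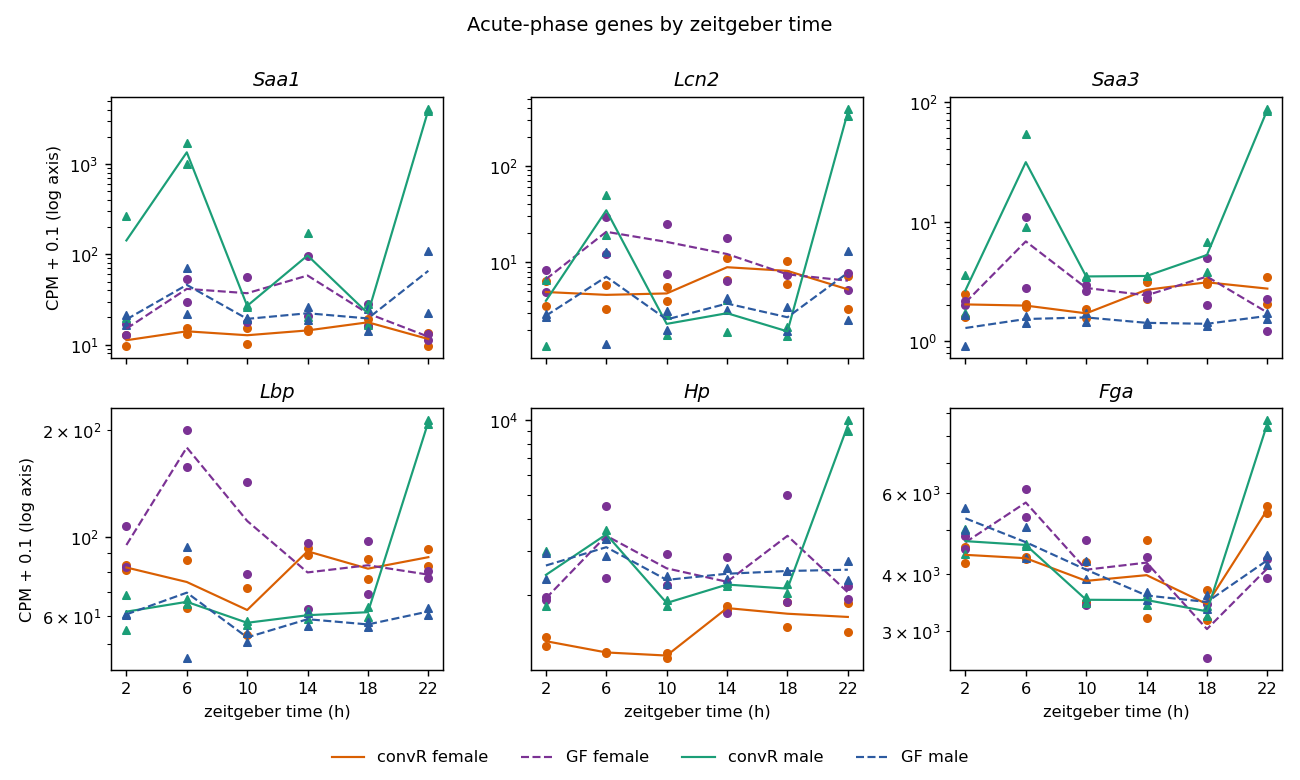
CPM (plus 0.1, log axis) of 6 acute-phase genes over the 6 zeitgeber times, with 1 point per library and lines through the means of the 2 libraries of each sex and status. The 2 convR male libraries at ZT22 stand above all other libraries of all 6 genes, and Saa1 of convR males is also high at ZT6.

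Several genes outside the list were also called lower against the other times. Fgl1, a fibrinogen-like protein secreted by hepatocytes, was at 1121 and 1038 CPM in convR males and at 496 and 250 CPM in GF males (difference -1.05 ± 0.22, adjusted p = 0.0268). Serpina10, an inhibitor of coagulation factor X, was at 420 and 443 CPM in convR males and 140 and 134 CPM in GF males, with 163 to 171 CPM in females (-0.68 ± 0.12, adjusted p = 0.0101; -1.36 in males and 0.00 in females). Dnajc12, a cochaperone of the aromatic amino acid hydroxylases, gave -1.04 ± 0.23. Pgm3, of UDP-N-acetylglucosamine synthesis, and Adrbk2, a kinase of G protein-coupled receptors, were lower in GF livers of both sexes. Pgm3 was at 17.3 and 19.6 against 8.55 and 11.5 CPM in females and 28.4 and 28.9 against 15.7 and 16.3 CPM in males (-0.83 ± 0.18), and Adrbk2 gave -0.90 ± 0.17.

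Promoters of 4 acute-phase members are printed to show what they do and do not share. They are RefSeq windows on GRCm38.p6, cut where the GENCODE gene begins and written 5' to 3', with the STAT3 motif (TTCNNNGAA, which reads the same on both strands) in capitals where it was found. Fga lies at chr3:83025903-83026075 on the plus strand with a match 234 to 226 bases before the RefSeq start, Fgb at chr3:83049864-83050113 on the minus strand with a match at 162 to 154, Itih4 at chr14:30886226-30886475 on the plus strand with a match at 51 to 43, and Saa3 at chr7:46715701-46715926 on the minus strand with no match.

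Fga: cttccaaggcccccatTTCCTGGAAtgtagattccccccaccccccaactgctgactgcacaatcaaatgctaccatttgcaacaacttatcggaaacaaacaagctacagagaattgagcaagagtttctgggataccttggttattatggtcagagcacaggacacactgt

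Fgb: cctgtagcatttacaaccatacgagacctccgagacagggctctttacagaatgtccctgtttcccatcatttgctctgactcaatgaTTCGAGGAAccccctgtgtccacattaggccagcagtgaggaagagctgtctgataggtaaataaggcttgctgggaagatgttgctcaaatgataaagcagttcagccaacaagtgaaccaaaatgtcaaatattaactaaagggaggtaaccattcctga

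Itih4: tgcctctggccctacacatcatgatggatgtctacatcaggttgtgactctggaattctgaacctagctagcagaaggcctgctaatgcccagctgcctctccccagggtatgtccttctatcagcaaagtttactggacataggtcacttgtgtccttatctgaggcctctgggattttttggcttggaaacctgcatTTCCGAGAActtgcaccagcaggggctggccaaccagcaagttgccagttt

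Saa3: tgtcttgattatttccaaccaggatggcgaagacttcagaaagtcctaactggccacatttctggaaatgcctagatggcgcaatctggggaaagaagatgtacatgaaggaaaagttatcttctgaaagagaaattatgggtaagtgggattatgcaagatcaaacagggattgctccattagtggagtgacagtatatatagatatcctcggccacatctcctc

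Of the 27 acute-phase genes with a promoter window, 7 held the STAT3 motif (25.9%), against 7.02% of all windows: Apcs, Fga, Fgb, Itih4, Steap4, Socs3 and Hamp. Among the 9 genes with a window of the 11 called lower, 3 held it (33.3%). Of the 7 motifs searched it was the most frequent in the 27 but not in those 9. A pair of receptor half-sites (ACANNNTGT, both strands) lay in 4 of those 9 (44.4%: Lcn2, Fga, Fgb and Serpina3n) and in 6 of the 27 (22.2%), against 5.84% of all windows. The sterol element (TCACNCCAC, both strands) lay in 2 of the 9 (22.2%: Saa3 and Itih3) and in 2 of the 27 (7.41%), against 1.05%. The motif of NF-kB was found in 1 of the 27, Steap4 (3.7%), against 3.9% of all windows, and the E-box also in 1. A match describes the letters and not binding, and the windows are short.

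The GF effect at ZT22 itself differed between the sexes for 127 genes (0.765%; interaction of status and sex in the 8 ZT22 libraries, edgeR), with 72 having a higher effect in females (0.434%) and 55 a lower one (0.331%). Acute-phase genes made up 18 of the 72. Taken by sex, that model called 339 genes in females (2.04%) and 1029 in males (6.2%). In it, 22 of the 32 acute-phase genes fell in males (against 3.04% of all genes) and 1 rose, whereas in females 2 rose, Crp and Mt1 (against 1.19% of all genes). The count of 127 was 30 without convR male replicate 2, 72 without convR female replicate 2, 73 without convR male replicate 1, 77 without GF male replicate 2, 82 without GF female replicate 1, 83 without convR female replicate 1 and 269 without GF male replicate 1. In all 48 libraries 33 genes passed. The acute-phase count of 18 was 8 without convR male replicate 2.

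**Figure D5:**
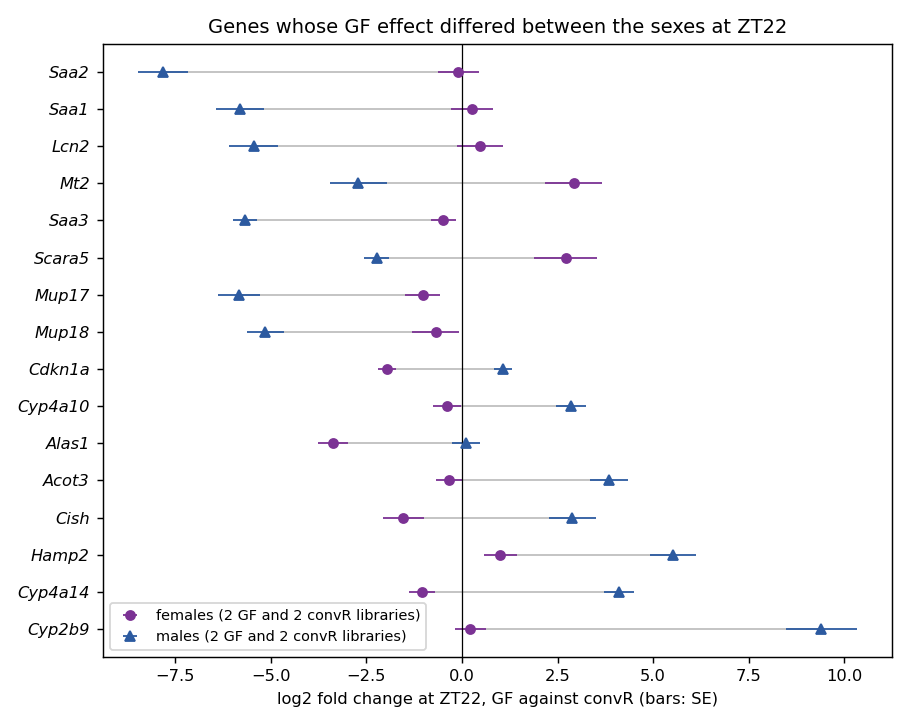
Log2 fold change of GF against convR at ZT22 in females and in males (bars are SE) for the 16 genes with the largest sex difference among those that passed. Saa1, Saa2, Saa3 and Lcn2 are near 0 in females and far below 0 in males, while Cyp2b9 and Hamp2 are far above 0 in males.

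Saa2 had the largest difference with a higher female effect, 7.72 ± 0.79 (adjusted p = 0.00296). It was at 3856 and 4203 CPM in convR males, 27.3 and 5.79 CPM in GF males and 4.93 to 7.22 CPM in the 4 female libraries. Saa1 differed by 6.08 ± 0.80, Lcn2 by 5.92 ± 0.85 and Saa3 by 5.19 ± 0.45. Scara5, a ferritin receptor, was at 49.2 and 46.7 CPM in convR males and at 13.3 and 5.59 CPM in GF males, with at most 0.644 CPM in females. Its difference was 4.94 ± 0.86 (adjusted p = 0.0361).

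Metallothioneins are small proteins that bind zinc and copper, and Mt1 rose in GF females and fell in GF males. Mt1 was at 33.0 and 73.3 CPM in convR females and 247 and 203 CPM in GF females, but at 173 and 135 CPM in convR males and 54.9 and 21.2 CPM in GF males. The groups were separated within each sex, with estimates of 2.29 in females (adjusted p = 0.0349) and -1.90 in males (adjusted p = 0.0327), and differed by 4.19 ± 0.62 (adjusted p = 0.0166). Mt2 differed by 5.63 ± 1.05 (adjusted p = 0.0493) from 3.01 and 22.1 CPM in convR and 89.4 and 75.5 CPM in GF females, and 74.7 and 51.8 CPM in convR and 14.1 and 3.80 CPM in GF males.

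Of the 17 genes of the metallothionein, iron and haem list, the difference passed for Mt1 and Mt2, with the higher effect in females (against 0.434% of all genes), and for Alas1 and Hamp2, with the lower one (against 0.331%). Alas1, the rate-limiting enzyme of haem synthesis and a clock-controlled gene, was at 324 and 722 CPM in convR females and 33.2 and 55.7 CPM in GF females. In males it was at 125 and 143 CPM in convR and 93.3 and 172 CPM in GF livers, where the statuses overlapped. The difference was -3.47 ± 0.53 (adjusted p = 0.0205). Hamp2, a hepcidin gene, was at 0.847 and 1.05 CPM in convR males and 16.8 and 63.9 CPM in GF males, against 132 and 165 CPM in convR and 252 and 265 CPM in GF females (-4.54 ± 0.73, adjusted p = 0.0258).

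Genes with a known sex bias in liver differed between GF and convR males. Of 40 male-biased genes, 21 fell in males, against 3.04% of all genes, and of 42 female-biased genes 20 rose in males, against 3.16%, and 1 fell. In females (1.19% of all genes higher and 0.849% lower) 4 male-biased genes fell and 5 rose, and 9 female-biased genes rose and 3 fell. The sex difference passed for 12 male-biased genes, all with a higher effect in females (against 0.434% of all genes). It passed for 10 female-biased genes, all with a lower effect in females (against 0.331%). The male-biased count was 5 without convR male replicate 2 and 6 without GF male replicate 2. The female-biased count was 2 without convR male replicate 2. It was 5 without GF female replicate 2, and 6 without GF female replicate 1 or convR male replicate 1. In all 48 libraries 1 gene of each list passed. These lists define the sexes by expression and overlap the Cyp, Mup and Ugt families, so they are not independent of one another.

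Cyp2b9, a P450 expressed in females, was at 440 and 453 CPM in convR females and 430 and 483 CPM in GF females. It was at 0.0242 and 0.0291 CPM in convR males, which is 1 read in each, and at 7.92 and 29.3 CPM in GF males. The sex difference was -9.18 ± 1.09 (adjusted p = 0.00654), a fitted value that depends on those single reads. Among male-biased genes, Mup17 was at 474 and 1132 CPM in convR males, 16.7 and 9.27 CPM in GF males, 36.7 and 80.2 CPM in convR females and 18.3 and 32.2 CPM in GF females (4.80 ± 0.67, adjusted p = 0.0137). The oxysterol hydroxylase Cyp7b1 was at 531 and 512 CPM in convR males and 173 and 170 CPM in GF males, with 18.4 to 24.9 CPM in females (1.79 ± 0.18, adjusted p = 0.00276). GF males remained above females for Cyp7b1 and below every female library for Mup17.

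Targets of PPAR alpha, the fasting-activated receptor of fatty acid oxidation, included 7 of 30 with a lower effect in females (against 0.331% of all genes). In males 9 rose (against 3.16%) and 1 fell (against 3.04%). Cyp4a14, an omega-hydroxylase, was at 925 and 792 CPM in convR females, 413 and 314 CPM in GF females, 25.7 and 9.87 CPM in convR males and 285 and 286 CPM in GF males. ConvR sexes were far apart and GF sexes close, and the difference was -5.15 ± 0.51 (adjusted p = 0.00276). Cyp4a10 differed by -3.24 ± 0.53, the acyl-CoA thioesterase Acot3 by -4.18 ± 0.60, the STAT5 target Cish by -4.42 ± 0.81 and the cell-cycle inhibitor Cdkn1a by -3.03 ± 0.34. Cyp4a10, Acot3 and Acot4 are on both the PPAR alpha list and the female-biased list, so the counts of these lists share genes. The PPAR alpha count was 2 without convR male replicate 2, 3 without GF male replicate 2 or convR male replicate 1, and 4 without GF female replicate 2 or convR female replicate 1. In all 48 libraries 1 passed.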

How the data were processed

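Liver RNA was measured in 48 libraries, 8 of them at ZT22. The authors deposited raw exon read counts for 38087 genes in 1 table per sex. Alignment with STAR 2.4.0i to mm10 is named in the submitters' processing notes, while for the counting tool, its strand setting, the annotation and multi-mapped reads the sources used here give nothing. Without the strand setting, overlapping and antisense genes cannot be told apart. Counts were analysed with edgeR 4.0.16 (R 4.3.3): filterByExpr (minimum count 10, total 15), TMM scaling, quasi-likelihood F tests and Benjamini-Hochberg adjustment at 0.05. Status and sex were fitted to the 8 ZT22 libraries (5 residual degrees of freedom), status, sex and their interaction to the same 8 (4), and 24 group means to all 48 (24). Errors of log2 fold changes are SE from the F statistic, and CPM are counts scaled to a library total of 1e6, without TMM. DESeq2 1.42.0 and other settings were alternatives.

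Named genes were the 12 highest and 12 lowest fold changes that passed, with an average log2 CPM of at least 1, the same direction in both sexes and no overlap of statuses within a sex. For the comparison of times they were the 12 highest and 12 lowest that also had their largest effect at ZT22, and for the sexes the 8 highest and 8 lowest. Some results are not reported here. List members were named as well, and Hp, Itih3, Itih4, Fgb and Me1 are such members. The genes and lists were chosen with earlier results of these data known. Coordinates are from GENCODE M21 on GRCm38, matched for 36308 genes. On simulated counts, the comparison at ZT22 (16294 genes) recovered 96% of changes of log2 size 1, the comparison of times (17704 genes) 92% and the sex difference (16297 genes) 51%. False calls were 6.7%, 5.45% and 8.81% of all calls in the same order. Changes were planted only in genes with an average log2 CPM of at least 1. Simulated counts were drawn independently, without deviations of whole libraries, so these shares need not hold for the real libraries.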

Additional observations from a re-analysis of the deposited data

Results flagged for a closer look

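In groups of 4 libraries, 1 library lay far from the other 3 in 5 cases. Chance alone gives about 1 such case in 20 groups. The groups searched were the 24 named genes of the ZT22 comparison and the library totals and marker sums, each in both statuses. Several of the 5 cases are thus expected by chance, and each group holds both sexes. Chrna4 reached 33.2 CPM in GF female replicate 1, and the pancreatic marker sum reached 592 CPM in the same library. Moxd1 reached 2.83 CPM in GF male replicate 1 among the GF libraries. The summed T and NK cell markers reached 6.69 CPM in convR female replicate 1, and the summed neutrophil and monocyte markers 98.2 CPM in convR male replicate 2.

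The GF effect at ZT22 differed from the mean of the other 5 times (log2, edgeR) for each gene named from that comparison. It was higher for Gsta2 (1.52), Cyp2a5 (1.31), Cry1 (1.07), Afmid (0.84), Spc24 (0.75), Crybg3 (0.68), Homer2 (0.56), Cry2 (0.54), Gpld1 (0.47), Tmem57 (0.47) and Sord (0.46). It was lower for Lcn2 (-2.89), Saa3 (-2.46), Lbp (-1.12), Fgl1 (-1.05), Dnajc12 (-1.04), Adrbk2 (-0.90), Hpx (-0.85), Serpina3n (-0.85), Pgm3 (-0.83), Fga (-0.77), Fgg (-0.70) and Serpina10 (-0.68).

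The effect differed between the sexes, as female minus male (log2, edgeR), for Saa2 (7.72), Saa1 (6.08), Lcn2 (5.92), Mt2 (5.63), Saa3 (5.19), Scara5 (4.94), Mup17 (4.80) and Mup18 (4.45). The female effect was the lower one for Cyp2b9 (-9.18), Cyp4a14 (-5.15), Hamp2 (-4.54), Cish (-4.42), Acot3 (-4.18), Alas1 (-3.47), Cyp4a10 (-3.24) and Cdkn1a (-3.03).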

How the results depend on the processing

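For the GF effect at ZT22 (1002 genes), 1929 genes were called with library size as the only scaling, 1949 with no filter on low counts, 1587 with DESeq2, 1561 with the interaction model averaged over the sexes and 348 in the female table alone, and leaving out 1 library gave 350 to 869. For the ZT22 GF effect against the other 5 times (46 genes), no filter gave 621, DESeq2 260, the reference of ZT18 and ZT2 alone 0, the female table alone 3, the male table alone 130, leaving out 4 libraries of other times that stand apart 181, and a reference without ZT6 156, without ZT10 5 and without ZT18 122. Leaving out 1 library gave 0 to 30. With library size as the only scaling, 29.8% of 47 calls were higher, against 45.7%. For the sex difference of the GF effect at ZT22 (127 genes), no filter gave 877, DESeq2 398, all 48 libraries 33, and leaving out 1 library 30 to 269. With library size as the only scaling, 45.7% of 151 calls were higher, against 56.7%. The cause of these shifts was not tested. In the female table alone the ZT22 difference from the other times reversed for Gsta2 (-0.20, adjusted p = 0.938, edgeR) and Serpina3n (0.28, adjusted p = 0.75). No other named gene changed sign under the alternatives run. With the replicate number as a block, the counts were 759, 48 and 235. Same-numbered GF and convR libraries at ZT22 had correlated deviations of 0.084 in females and 0.263 in males, and the labels name no shared animal or day, so the libraries share only a number. With 2 libraries per sex and status, small effects could be missed.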
